A study of Mus musculus with 26 samples.

Results

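The genes of cholesterol synthesis, uptake and export were followed in S49 cells, a mouse T lymphoma line, as cyclic AMP signalling was switched on. The set held 28 genes, taken by name from the pathway. It comprised the enzymes Acat2, Hmgcs1, Mvk, Pmvk, Mvd, Idi1, Fdps, Fdft1, Sqle, Lss, Cyp51, Tm7sf2, Msmo1, Nsdhl, Hsd17b7, Ebp, Sc5d and Dhcr7, the regulators Insig1, Insig2, Srebf1, Srebf2 and Scap, and the sterol carriers and exporters Stard4, Npc1, Npc2, Abca1 and Abcg1. Of the 28 genes, 26 had a probe set annotated with that symbol alone, and 24 were tested among 7435 genes that reached a log2 intensity of 5 on at least 3 of the 26 arrays. For Acat2 and Insig1 no probe set carried the symbol in the annotation used here, and they were not analysed here.

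Both lines came from S49 cultures grown in medium with horse serum. The WT cells were compared with D-, a deathless S49 variant, so that D- stands for 1 variant line. Each line was measured untreated on 4 arrays and after 2, 6 and 24 h of 8-CPT-cAMP on 3 arrays each. The treatment label reads 100 mM. 8-CPT-cAMP is an analogue of cyclic AMP that crosses the cell membrane and acts on its intracellular targets. Each array held the total RNA of 1 culture that the labels call a biological replicate. The titles of the treated WT arrays read untreated, while their source and description fields name the treatment, and the arrays were used as treated. In bulk RNA of this kind, fewer cells carrying a transcript and less transcript per cell cannot be told apart.

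Cholesterol is built from acetyl units through mevalonate, isoprenoids, squalene and lanosterol, and a last block of enzymes trims lanosterol to cholesterol. Many of these genes are driven by SREBP transcription factors, which stay in the endoplasmic reticulum, bound to SCAP and held by INSIG proteins, while sterol is plentiful. Cells also take up cholesterol in lipoproteins, pass it out of lysosomes through NPC2 and NPC1, move it between membranes with carriers such as STARD4, and export it through ABC transporters.

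The T cell genes Thy1, Cd3e, Cd3d and Cd3g lay between 9.44 and 13.34 on the log2 scale on all 26 arrays. Cd2 ranged from 4.46 to 11.12 and was lower in WT, and Cd5 stayed at or below 3.55. Of the markers of other lineages, Cd79b, Ms4a1, Pax5, Lyz2, Cd14, Mpo, Hba-a1, Col1a1, Col1a2 and Dcn lay under 5 on every array, Cd79a, Csf1r and Klf1 stayed between 4.66 and 6.08, and Itgam averaged 6.24 in WT and 5.83 in D- at 24 h against 4.05 and 4.42 untreated, and the part of that difference in the values below was not tested. Lck was not analysed here. Replicates of a group correlated at 0.97 or more over the probe sets tested. Their deviations from the group means fell into 2 clusters along a first axis that held 38.8% of that variance. Cluster 1 had 10 arrays, replicates 1 and 2 of both untreated groups and replicate 1 of every treated group, and cluster 2 had the other 16. The labels name no batch, and values with this split as a block or within cluster 2 are given beside the calls they change. Because the split was drawn from these same arrays, p-values of limma fits that use it can be too small. They are given as a description.

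Members of the set rose and fell side by side. In at least 1 of the 6 comparisons with untreated cells, 14 of the 24 passed the test (58.3%) and 10 passed in none, while 72.8% of all genes tested passed at least 1. In the same direction and at the same time in both lines, 9 of the 24 passed (37.5%, against 43.8% of all genes). Of these 9, Pmvk and Stard4 peaked at 2 h, Cyp51 and Srebf2 stayed high from 6 to 24 h, Mvd dipped at 6 h and came back, Scap was lower at 2 and 6 h, Npc1 and Insig2 were higher by 6 h, and Npc2 climbed to 24 h. The other 5, Hmgcs1, Tm7sf2, Hsd17b7, Sc5d and Srebf1, passed in 1 line at a time. A call here means an adjusted p under 0.05 from limma, with Benjamini-Hochberg adjustment over all 12724 probe sets tested. In WT at 2 h, 4 of 24 members were higher and 2 lower, where 11.2% of all genes tested were higher and 13.9% lower. At 6 h the WT counts were 7 higher and 3 lower against a background of 19.1% higher and 19.1% lower. At 24 h they were 5 higher and 0 lower against 26.4% and 27.5%, with 7 of 24 members at an unadjusted p under 0.05 in either direction (29.2%, against 58.3% of all genes). D- gave 5 higher and 1 lower at 2 h (background 9.05% and 13.2%), 8 and 2 at 6 h (16.2% and 15.6%), and 6 and 1 at 24 h (17.1% and 17.6%). By these counts the share of members called higher lay above that of all genes at each time in D- and at 2 and 6 h in WT, and the share called lower lay below it in all 6 comparisons. The counts are small, several lie near the share of all genes, and the differences between the shares were not tested. In WT at 2 h the order of the shares did not hold throughout. Without WT untreated replicate 2, 2 members were higher and 5 lower, against 9.59% and 12.2% of all genes. The lower share also passed that of all genes with array weights (6 of 24, 17.9% of all genes) and with the array cluster as a block (6, 18.8%). It did so too with the mean of all probe sets (4, 14.8%) and within cluster 2 (7, 14.6%), and at 6 h in WT within cluster 2 (5, 19.9%). The median log2 change of the members was 0.06, 0.27 and -0.01 at 2, 6 and 24 h in WT, and 0.06, 0.38 and 0.26 in D-, where the medians of all genes tested lay within 0.03 of 0. Leaving out 1 array changed the sign of 3 of these medians. At 2 h they ranged from -0.0247 (without WT 2 h replicate 3) to 0.15 (without WT untreated replicate 4) in WT and from -0.0296 (without D- untreated replicate 1) to 0.20 (without D- 2 h replicate 1) in D-, and at 24 h in WT from -0.0959 (without WT 24 h replicate 3) to 0.227 (without WT 24 h replicate 1). The D- median at 24 h ran from 0.131 (without D- 24 h replicate 2) to 0.456 (without D- 24 h replicate 1). The medians at 6 h stayed between 0.203 and 0.425 in WT and between 0.28 and 0.496 in D-. Cluster 1 held a larger share of the untreated arrays than of the treated ones, and most enzymes read lower on it. With the cluster as a block the medians at 2, 6 and 24 h were 0.034, 0.268 and -0.030 in WT. In D- they were -0.023, 0.34 and 0.147.

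**Figure D1:**
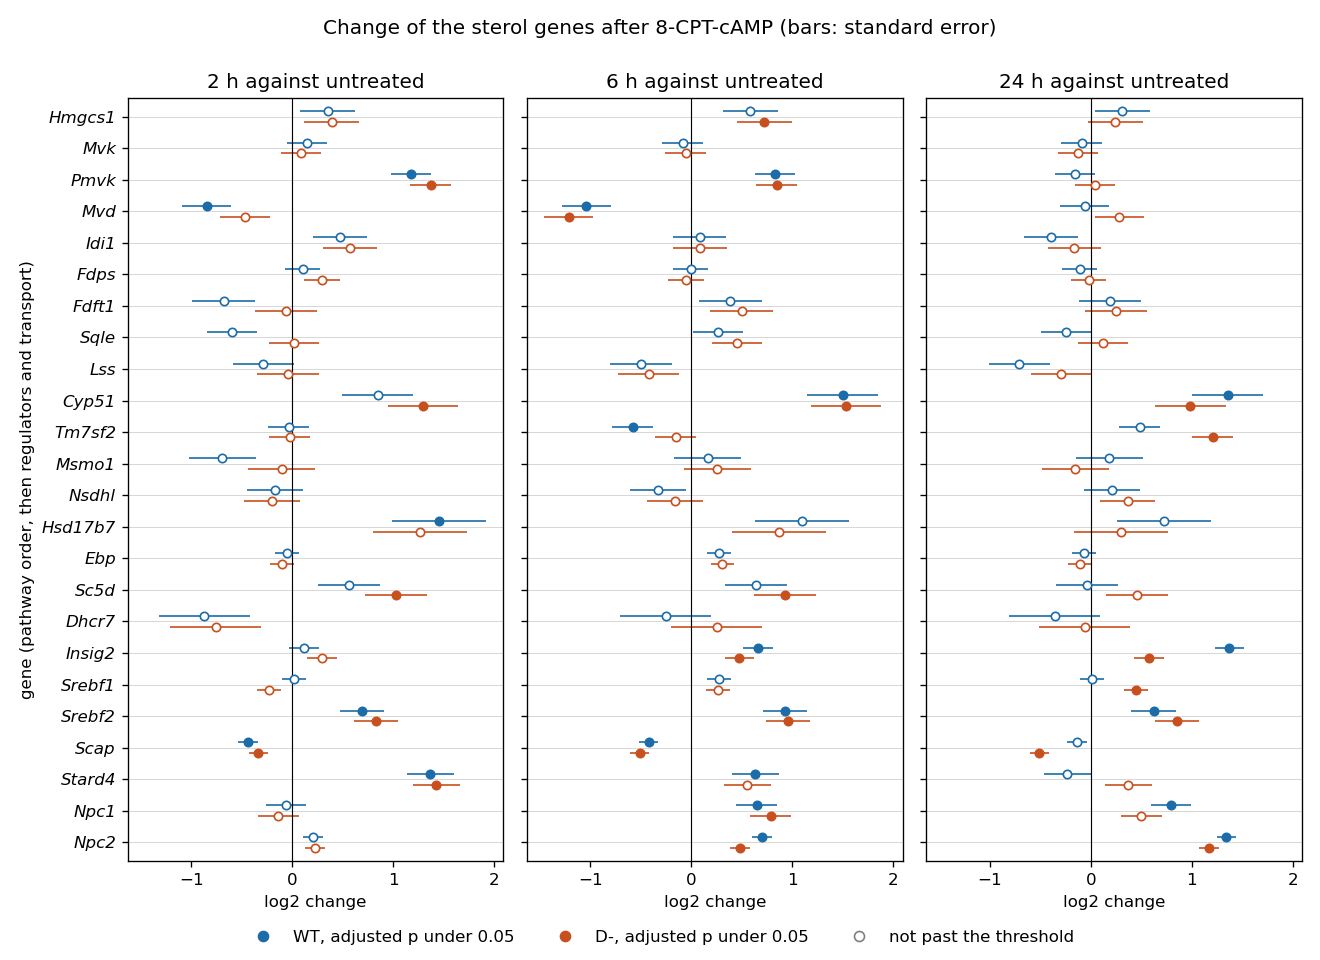
Log2 change of the 24 tested members (rows) at 2, 6 and 24 h of 8-CPT-cAMP against untreated cells of the same line, with WT in blue and D- in orange; bars are standard errors of the limma fit and filled points have an adjusted p under 0.05. Hsd17b7, Stard4 and Pmvk lie farthest right at 2 h in WT and Stard4, Pmvk and Cyp51 in D-, Cyp51 at 6 h in both lines, and Insig2, Cyp51 and Npc2 at 24 h in WT, while Mvd is the lowest point at 6 h in both lines.

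The mevalonate enzymes moved apart. Pmvk and Mvd catalyse neighbouring steps, the phosphorylation of phosphomevalonate and the decarboxylation that follows it, and they changed in opposite directions. The log2 level of Pmvk on the untreated WT arrays was 9.10, 8.34, 8.65 and 9.46; it was 10.00, 9.80 and 10.39 at 2 h, 9.48, 9.67 and 9.99 at 6 h and 8.43, 8.72 and 9.05 at 24 h. In D- the untreated arrays read 8.77, 8.66, 8.49 and 8.66, and the treated ones 9.89, 10.03 and 10.13 at 2 h, 9.64, 9.34 and 9.48 at 6 h and 8.69, 8.60 and 8.76 at 24 h. All arrays at 2 and 6 h stood above all untreated arrays of their line, and all 24 h arrays lay within the untreated range of their line. Pmvk rose by 1.18 (SE 0.20, adjusted p = 0.000134) at 2 h in WT and by 1.37 (SE 0.20, adjusted p = 2.56e-05) in D-, and was still up by 0.83 and 0.84 at 6 h. Between 6 and 24 h it fell, with log2 changes of -0.98 in WT and -0.80 in D- (adjusted p = 0.00132 and 0.0132). The D- call was lost without D- 6 h replicate 1 (-0.73, adjusted p = 0.0551) and within cluster 2 at -0.73 (adjusted p = 0.0524).

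The levels of Mvd on the untreated WT arrays were 8.81, 8.37, 8.50 and 9.17, followed by 8.13, 7.51 and 7.97 at 2 h, 7.68, 7.34 and 8.00 at 6 h and 8.44, 8.48 and 9.03 at 24 h. In D- they were 8.07, 8.01, 8.53 and 8.76 untreated, then 7.58, 8.01 and 8.05, 6.85, 6.89 and 7.65 and 8.80, 8.69 and 8.38. Every 6 h array lay below every untreated array of its line, and the 24 h arrays lay among the untreated ones or above them. Mvd fell at 6 h, with log2 changes of -1.04 (SE 0.24, adjusted p = 0.00191) in WT and -1.21 (SE 0.24, adjusted p = 0.000599) in D-, and rose by 0.98 and 1.496 from 6 to 24 h. At 2 h Mvd had already fallen by 0.85 in WT (adjusted p = 0.013). That call was lost without WT untreated replicate 4 (-0.69, adjusted p = 0.0509) and without WT 2 h replicate 2 (-0.67, adjusted p = 0.0946). In D- the 2 h value was -0.47 and did not pass.

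The other early enzymes gave smaller values. Hmgcs1, which makes the precursor of mevalonate, rose by 0.72 (SE 0.27, adjusted p = 0.0491) in D- at 6 h, with arrays from 13.61 to 14.02 against 12.94 to 13.46 untreated and no overlap. The call held in 10 of its 19 alternative analyses and was lost without D- untreated replicate 1, 2 or 3 or D- 6 h replicate 1, 2 or 3 (0.63 to 0.84, adjusted p = 0.0502 to 0.164). The WT value at 6 h was 0.58 (adjusted p = 0.103). Mvk, the kinase before Pmvk, gave values between -0.13 and 0.15 in the 6 comparisons with untreated cells. Idi1, the isomerase that starts isoprenoid assembly, lay between -0.39 and 0.57, and Fdps, which makes farnesyl diphosphate, between -0.11 and 0.30. None of the last 3 passed the test at any time.

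Past the squalene branch point, Cyp51 stood out. It encodes the demethylase that takes lanosterol into the last block of synthesis. Its untreated WT arrays read 10.26, 9.57, 10.76 and 11.22, and the treated ones 10.90, 11.48 and 11.52 at 2 h, 11.22, 12.18 and 12.45 at 6 h and 11.06, 12.10 and 12.26 at 24 h. In D- the levels were 10.17, 10.12, 10.63 and 10.65 untreated, 11.30, 11.71 and 12.05 at 2 h, 11.76, 11.85 and 12.16 at 6 h and 10.90, 11.64 and 11.59 at 24 h. Treated and untreated arrays did not overlap at any time in D-, while in WT they overlapped at 2 and 24 h through replicate 1 of the treated group. Cyp51 rose by 1.498 (SE 0.35, adjusted p = 0.00193) at 6 h and 1.35 (SE 0.35, adjusted p = 0.00249) at 24 h in WT. In D- it rose by 1.30 (SE 0.35, adjusted p = 0.0097) at 2 h, 1.53 (SE 0.35, adjusted p = 0.00196) at 6 h and 0.99 (SE 0.35, adjusted p = 0.034) at 24 h. The WT value at 2 h, 0.85, did not pass (adjusted p = 0.0866), and with the array cluster as a block it was 0.72 (adjusted p = 0.00353). The D- call at 24 h held in 12 of 19 alternatives and was lost without D- untreated replicate 1 or 2 or D- 24 h replicate 2 or 3 (0.85 to 0.91, adjusted p = 0.0783 to 0.137), and the D- call at 2 h was lost without D- 2 h replicate 3 (1.11, adjusted p = 0.0591). A second bright probe set of Cyp51 gave 0.65, 1.08 and 1.04 in WT and 1.07, 1.08 and 0.67 in D- at the same times. The third, near log2 5, gave 0.37, 0.69 and 0.49 in WT and 0.48, 0.60 and 0.22 in D-. The mean of all 3 in D- at 24 h was 0.62 (adjusted p = 0.0748).

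Sc5d, the lathosterol desaturase, and Hsd17b7, a ketoreductase that completes removal of the methyl groups of lanosterol, followed an early course. Sc5d levels in WT were 8.32, 8.10, 8.78 and 9.26 untreated, 8.77, 9.36 and 9.40 at 2 h, 8.73, 9.40 and 9.64 at 6 h and 7.90, 8.79 and 9.03 at 24 h. In D- they were 8.02, 8.06, 8.44 and 8.60, then 8.91, 9.52 and 9.49, 8.70, 9.35 and 9.56 and 8.36, 8.80 and 9.05. The groups overlapped at every time in WT and did not at 2 and 6 h in D-. Sc5d rose by 1.03 (SE 0.31, adjusted p = 0.0181) at 2 h and 0.92 (SE 0.31, adjusted p = 0.0258) at 6 h in D-, against WT values of 0.56 and 0.64 that did not pass (adjusted p = 0.205 and 0.111). The D- calls held in 16 of 19 and 14 of 19 alternatives. The call at 2 h was lost without D- untreated replicate 2 or D- 2 h replicate 2 or 3 (0.92 to 0.96, adjusted p = 0.0518 to 0.0835), and that at 6 h without D- untreated replicate 1 or 2 or D- 6 h replicate 2 or 3 (0.74 to 0.85, adjusted p = 0.0641 to 0.136). With the cluster as a block all 4 values passed, with the WT ones at 0.45 (adjusted p = 0.007) and 0.52 (adjusted p = 0.00133).

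Hsd17b7 was the dimmest tested member and reached log2 5 on 24 of the 26 arrays. Its WT levels were 5.52, 4.34, 6.39 and 6.51 untreated, 6.74, 7.51 and 7.20 at 2 h, 5.94, 7.19 and 7.22 at 6 h and 6.11, 6.66 and 6.47 at 24 h. The D- levels were 5.50, 5.16, 5.49 and 6.23, then 6.33, 7.27 and 7.003, 5.85, 6.58 and 6.97 and 4.90, 6.36 and 6.44. All 2 h arrays stood above all untreated arrays in both lines, and the untreated arrays spread over more than 2 log2 units in WT. Hsd17b7 rose by 1.46 (SE 0.46, adjusted p = 0.0245) in WT at 2 h. The call was lost in 6 of 19 alternatives, among them without WT untreated replicate 1 or 2 or WT 2 h replicate 2 or 3 (1.01 to 1.43, adjusted p = 0.0535 to 0.106), and within cluster 2 alone the value was 0.90. The D- value of 1.27 at 2 h missed the threshold (adjusted p = 0.0551), and passed with the cluster as a block at 1.11 (adjusted p = 0.00225).

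Tm7sf2, the sterol reductase that acts on the product of Cyp51, differed between the lines before treatment. Its levels were 8.28, 8.00, 8.04 and 8.71 in untreated WT and 7.28, 7.33, 7.66 and 7.52 in untreated D-, without overlap. D- was lower by a log2 difference of -0.81 (SE 0.19, adjusted p = 0.0122), the 1 member of 24 called between the untreated lines, where 1.91% of all genes were higher and 3.09% lower in D-. Without WT untreated replicate 4 the difference was -0.66 (adjusted p = 0.0623), and within cluster 2 -0.78 (adjusted p = 0.0773). In WT the treated arrays read 8.20, 8.15 and 8.33 at 2 h, 7.84, 7.35 and 7.83 at 6 h and 8.48, 8.77 and 8.97 at 24 h. In D- they read 7.30, 7.35 and 7.62, 6.96, 7.16 and 7.75 and 8.22, 8.82 and 8.93. By 24 h the lines overlapped and all D- arrays stood above their untreated level. Tm7sf2 rose by 1.20 (SE 0.20, adjusted p = 8.7e-05) in D- at 24 h. In WT it fell by 0.58 at 6 h (adjusted p = 0.0288), a call kept in 13 of 19 alternatives and lost without WT untreated replicate 1 or 4 or WT 6 h replicate 2 (-0.42 to -0.58, adjusted p = 0.0531 to 0.178). At 24 h in WT it stood 0.48 from untreated (adjusted p = 0.0514). From 6 to 24 h it rose by 1.06 in WT and 1.36 in D-.

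Fdft1, Sqle, Lss, Msmo1, Nsdhl and Dhcr7, which make squalene, oxidise and cyclise it, and carry out later demethylation and reduction steps, were not called in any comparison. Ebp, a sterol isomerase, was called in none against untreated cells and was lower at 24 h than at 6 h, with log2 changes of -0.34 in WT and -0.41 in D- (adjusted p = 0.0448 and 0.0301). These calls held in 9 and 11 of 18 alternatives. The WT call was lost without WT 6 h replicate 1, 2 or 3 or WT 24 h replicate 2 (-0.23 to -0.37, adjusted p = 0.066 to 0.23), and the D- call without D- 6 h replicate 1 or 3 or D- 24 h replicate 2 or 3 (-0.32 to -0.41, adjusted p = 0.0688 to 0.152). Within cluster 2 they were -0.39 (adjusted p = 0.0967) and -0.51 (adjusted p = 0.0574). The largest values among the uncalled genes were for Dhcr7 at 2 h, -0.87 in WT and -0.76 in D- (SE 0.45). In WT at 2 h Fdft1 gave -0.68, Msmo1 -0.69 and Sqle -0.59. Lss gave -0.71 at 24 h in WT (adjusted p = 0.0558). Its probe sets disagreed in size: a dimmer one gave -2.90 in WT and -1.30 in D- at 2 h, where the brightest gave -0.29 and -0.04.

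**Figure D2:**
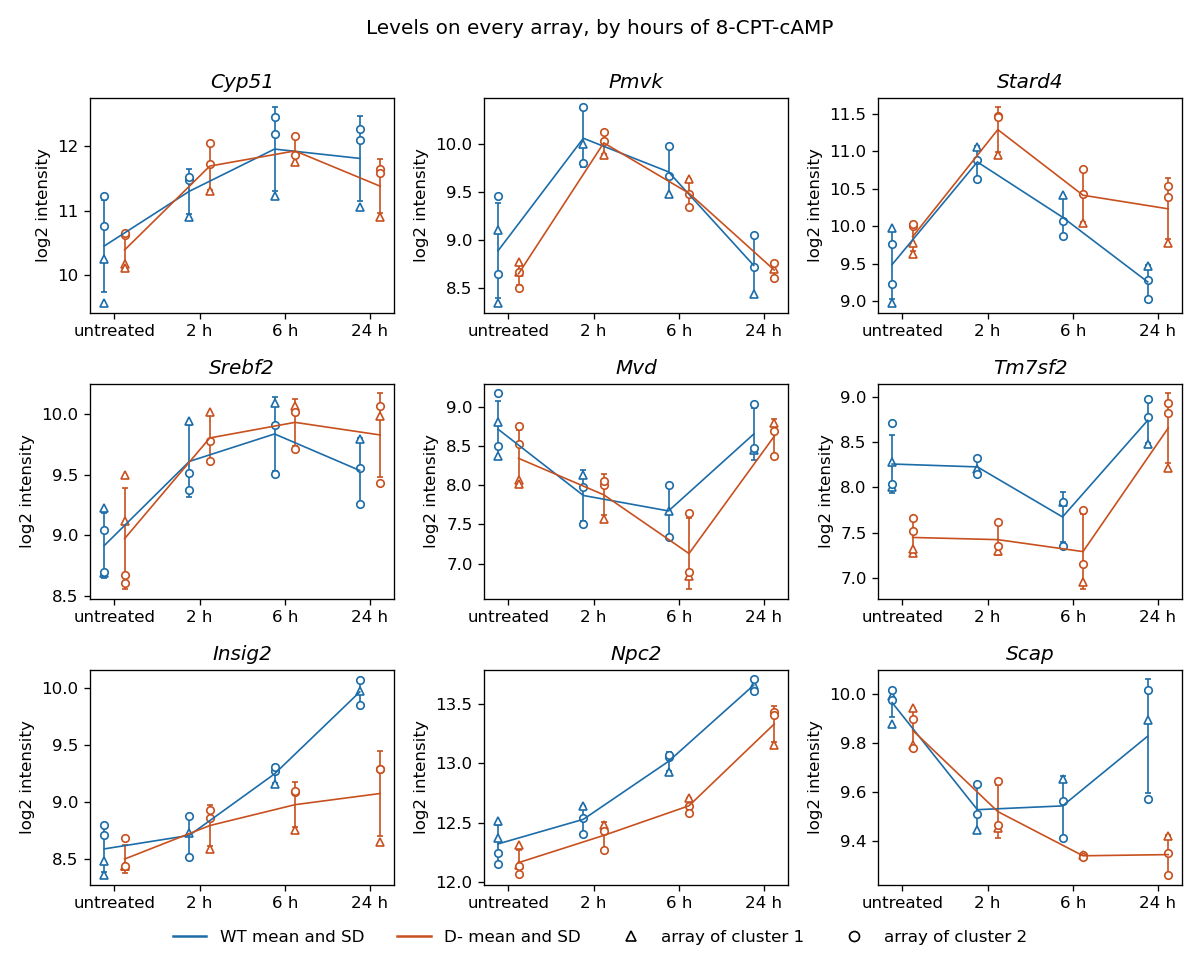
Log2 intensity of 9 members on every array (vertical axes, scaled per gene) for untreated cells and 2, 6 and 24 h of 8-CPT-cAMP (horizontal axis, groups evenly spaced), with WT in blue and D- in orange; lines join group means, bars are SDs, and triangles mark arrays of cluster 1. Pmvk and Stard4 peak at 2 h, Mvd is lowest at 6 h in both lines, Npc2 climbs to 24 h, and Insig2 at 24 h lies higher in WT than in D-.

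The spread among replicates was itself shared across the enzymes. Over the whole set, 19 of 24 members averaged lower on the arrays of cluster 1 than on those of cluster 2 after each group mean was removed, and so did 16 of the 17 enzymes. The difference was -0.99 for Dhcr7, -0.94 for Hsd17b7, -0.73 for Cyp51, -0.68 for Msmo1 and -0.68 for Sc5d. The median over the 17 enzymes was -0.53, against -0.03 over all 7435 genes, and 11 of the 17 lay at least 0.5 lower where 4.48% of all genes did. Srebf2 went the other way (0.34), and Scap, Npc1, Npc2, Ebp and Srebf1 differed by less than 0.1 in either direction. The clusters were drawn from all probe sets tested, these included, so the differences describe the arrays and are not tested.

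**Figure D3:**
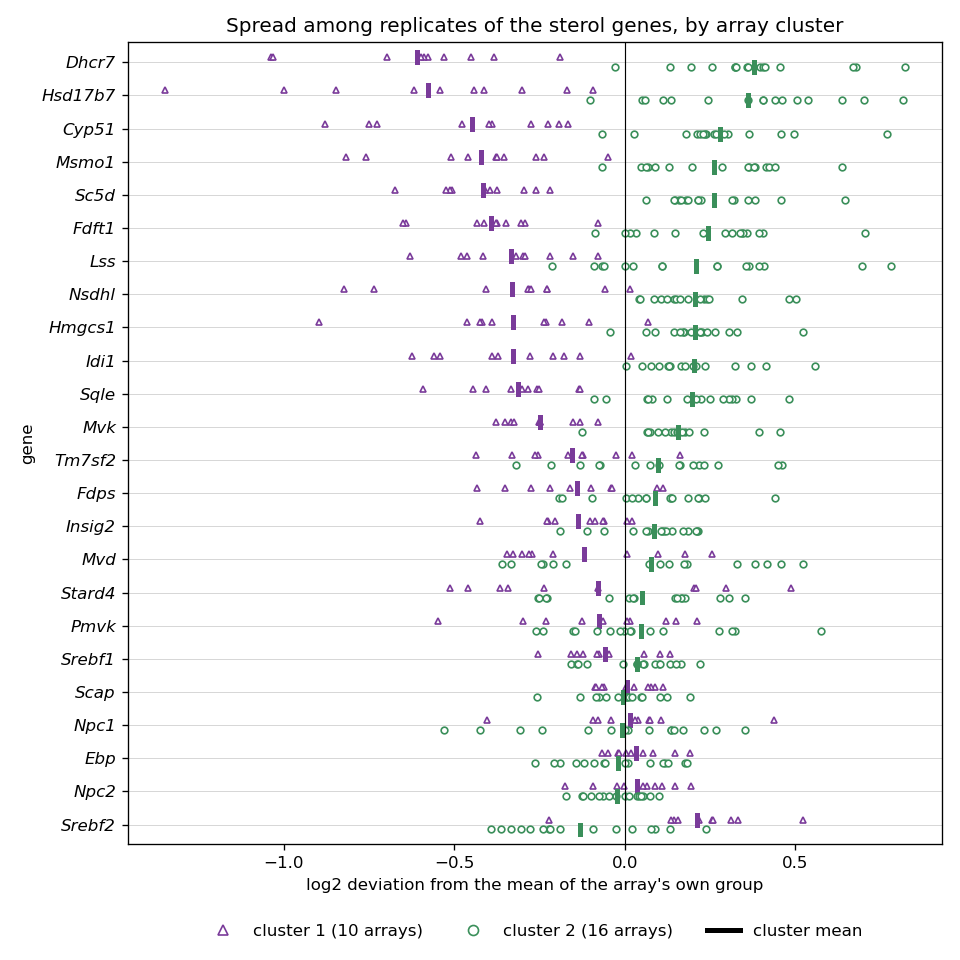
Deviation of each array from the mean of its own group (horizontal axis, log2) for the 24 tested members (rows, sorted by the difference between clusters), with the 10 arrays of cluster 1 as triangles and the 16 of cluster 2 as circles; thick ticks are cluster means. From Dhcr7 down to Mvk the triangles lie mostly left of the circles, while from Scap to Npc2 the cluster means nearly coincide.

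With the cluster as a block in the limma fit, more enzymes passed and no call of a member was lost. In WT at 2 h the counts became 6 higher and 6 lower of 24, where 14.4% of all genes were higher and 18.8% lower in that fit. The added calls were Cyp51 and Sc5d higher, and Dhcr7 at -1.04 (adjusted p = 0.000179), Msmo1 at -0.81 (adjusted p = 0.00105), Fdft1 at -0.79 (adjusted p = 0.000586) and Sqle at -0.68 (adjusted p = 0.000336) lower. In D- at 2 h, Dhcr7 was lower as well, at -0.93 (adjusted p = 0.000645). In WT at 24 h the counts became 6 higher and 4 lower (29.6% and 30.5% of all genes), with Lss at -0.80 (adjusted p = 0.00205), Dhcr7 at -0.53 (adjusted p = 0.0198), Idi1 at -0.49 (adjusted p = 0.00706) and Sqle at -0.33 (adjusted p = 0.0345) lower. At 6 h the counts became 10 higher and 5 lower in WT (22.7% and 22.3% of all genes) and 11 and 2 in D- (19.7% and 19.9%). Without the block they were 7 and 3 in WT and 8 and 2 in D-, so lower calls were added in WT at 6 h too. The calls added at 6 h included Hmgcs1 in WT, at 0.49 (adjusted p = 0.0161), and Hsd17b7 in both lines. Over all comparisons 59 calls of members were made, and 59 of 59 held with the block. That is no independent support, because the clusters were drawn from the deviations of these same arrays. Such a block takes spread out of genes that follow the first axis. The median correlation with that axis was -0.844 for the enzymes and -0.125 for all genes. Within cluster 2 alone 50 held, and the 9 others are given with their genes. Within cluster 1 alone each treated group had 1 array, and no count of calls is given. The share of the calls of all genes that held in these fits was not counted, so the members' calls cannot be ranked against those of other genes.

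Among the regulators, Srebf2, the SREBP that mainly serves cholesterol genes, was called higher in both lines at all times on its brightest probe set, in WT at 2 and 24 h less firmly than elsewhere. Its WT levels were 9.23, 8.69, 8.70 and 9.05 untreated, 9.94, 9.37 and 9.52 at 2 h, 10.09, 9.91 and 9.50 at 6 h and 9.79, 9.26 and 9.56 at 24 h. In D- they were 9.50, 9.12, 8.67 and 8.61, then 10.02, 9.61 and 9.78, 10.07, 9.71 and 10.02 and 9.98, 10.07 and 9.43. Treated and untreated arrays overlapped in D- at 24 h and in no other of the 6 comparisons. The changes were 0.70, 0.92 and 0.62 in WT (SE 0.22, adjusted p = 0.0223, 0.00213 and 0.0208) and 0.83, 0.96 and 0.86 in D- (adjusted p = 0.0079, 0.00186 and 0.00416). The WT call at 2 h held in 13 of 19 alternatives and was lost without WT untreated replicate 2 or 3 or WT 2 h replicate 1 (0.53 to 0.62, adjusted p = 0.0618 to 0.123) and within cluster 2 at 0.57 (adjusted p = 0.0666). The WT call at 24 h held in 14 of 19 and was lost without WT untreated replicate 2 or 3 or WT 24 h replicate 1 or 3 (0.49 to 0.61, adjusted p = 0.0548 to 0.101). The second probe set of Srebf2 did not follow at 2 h, with -0.17 in WT and 0.09 in D-, and gave 0.30 and 0.42 at 6 h and 0.68 and 0.42 at 24 h. The mean of both probe sets at 2 h in WT was 0.26 (adjusted p = 0.0894). Srebf1, the SREBP gene more tied to fatty acid synthesis, rose by 0.44 (SE 0.12, adjusted p = 0.00594) in D- at 24 h, where its arrays ran from 9.68 to 9.91 against 9.22 to 9.51 untreated. The WT value at 24 h was 0.01.

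Scap, the escort that carries SREBPs out of the endoplasmic reticulum, was lower after treatment. Untreated arrays ran from 9.88 to 10.02 in WT and from 9.78 to 9.94 in D-. At 2 h the arrays read 9.44, 9.51 and 9.63 in WT and 9.45, 9.47 and 9.64 in D-, and at 6 h 9.65, 9.41 and 9.57 and 9.34, 9.34 and 9.33. None of these reached the untreated range. At 24 h the WT arrays, 9.90, 9.57 and 10.02, overlapped it and the D- arrays, 9.42, 9.26 and 9.35, did not. Scap fell, with log2 changes of -0.44 and -0.42 in WT (adjusted p = 0.00161 and 0.00152), and of -0.33, -0.51 and -0.51 in D- (adjusted p = 0.0151, 0.000308 and 0.000285). The D- call at 2 h held in 15 of 19 alternatives and was lost without D- 2 h replicate 1 or 2 (-0.30 and -0.31, adjusted p = 0.0679 and 0.0666) and within cluster 2 at -0.29 (adjusted p = 0.18).

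Insig2, which retains the SCAP complex in the endoplasmic reticulum, rose by 6 h in both lines, went on rising to 24 h in WT, and was the 1 member whose response differed between the lines. Its WT levels were 8.36, 8.49, 8.71 and 8.80 untreated, 8.73, 8.52 and 8.88 at 2 h, 9.16, 9.27 and 9.31 at 6 h and 9.97, 9.85 and 10.07 at 24 h. In D- they were 8.44, 8.44, 8.44 and 8.69, then 8.59, 8.93 and 8.86, 8.75, 9.09 and 9.10 and 8.65, 9.29 and 9.29. At 24 h every WT array stood above every D- array, and D- 24 h replicate 1 lay within its untreated range. Insig2 rose by 0.66 (SE 0.15, adjusted p = 0.00139) at 6 h and 1.37 (SE 0.15, adjusted p = 1.01e-07) at 24 h in WT, and both calls held in all 19 alternatives. In D- it rose by 0.48 (SE 0.15, adjusted p = 0.0176) at 6 h and 0.57 (SE 0.15, adjusted p = 0.00441) at 24 h, the former lost without D- 6 h replicate 2 or 3 (0.42 and 0.42, adjusted p = 0.0809 and 0.0826). The D- response at 24 h minus that of WT was -0.80 (SE 0.21, adjusted p = 0.0138), with a 95% interval from -1.23 to -0.37. Without D- 24 h replicate 1 it was -0.59 (adjusted p = 0.0516), and within cluster 2 -0.48 (adjusted p = 0.0973). The other probe sets of Insig2 gave 1.44 and 1.77 in WT at 24 h and 0.54 and 1.32 in D-, so that the difference between lines was -0.91 on one and -0.45 on the other. The third also stood higher at 2 h, at 0.79 in WT and 1.10 in D-, where the brightest gave 0.12 and 0.29.

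Of the sterol carriers, Stard4, a soluble protein that moves cholesterol between membranes, gave the largest 2 h change in D-. Its WT levels were 9.97, 8.98, 9.23 and 9.77 untreated, 11.06, 10.63 and 10.88 at 2 h, 10.41, 9.87 and 10.07 at 6 h and 9.46, 9.02 and 9.28 at 24 h. In D- they were 9.62, 9.78, 10.01 and 10.03, then 10.94, 11.46 and 11.45, 10.05, 10.42 and 10.77 and 9.77, 10.54 and 10.38. At 2 h all treated arrays stood above all untreated ones in both lines. Stard4 rose by 1.37 (SE 0.23, adjusted p = 0.00013) in WT and 1.43 (SE 0.23, adjusted p = 8.96e-05) in D-. At 6 h the WT value was 0.63 (adjusted p = 0.0382, past the threshold in 10 of 19 alternatives) and the D- value 0.55 (adjusted p = 0.0777). The WT call was lost without WT untreated replicate 2 or 3 or WT 6 h replicate 1 or 3 (0.46 to 0.65, adjusted p = 0.0767 to 0.159) and within cluster 2 at 0.47 (adjusted p = 0.055). From 6 to 24 h Stard4 fell by 0.86 in WT (adjusted p = 0.0109), a call lost without WT 6 h replicate 1 or WT 24 h replicate 2 (-0.72 and -0.75, adjusted p = 0.0555 and 0.057). Its second probe set gave smaller 2 h values, 0.34 in WT and 0.78 in D-, and the mean of both in WT was 0.85 (adjusted p = 0.00465). With that mean the other WT calls of Stard4 were lost, at 0.42 at 6 h (adjusted p = 0.133) and -0.56 from 6 to 24 h (adjusted p = 0.0631).

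Npc2, the lysosomal protein that hands cholesterol to Npc1, rose in both lines, with an SE of 0.10 for each change. Its WT levels were 12.51, 12.37, 12.15 and 12.25 untreated, 12.64, 12.41 and 12.54 at 2 h, 12.92, 13.06 and 13.07 at 6 h and 13.66, 13.71 and 13.62 at 24 h. In D- they were 12.31, 12.14, 12.14 and 12.06, then 12.48, 12.27 and 12.43, 12.71, 12.64 and 12.58 and 13.16, 13.43 and 13.41. The arrays at 6 and 24 h stood clear of the untreated ones in both lines. Npc2 rose by 0.70 at 6 h and 1.34 (SE 0.10, adjusted p = 5.16e-10) at 24 h in WT, and by 0.48 and 1.17 (SE 0.10, adjusted p = 8.86e-09) in D-. Both 24 h calls held in all 19 alternatives. Npc1, the membrane partner of Npc2, rose by 0.64 at 6 h and 0.79 at 24 h in WT (adjusted p = 0.0154 and 0.00209) and by 0.78 at 6 h in D- (adjusted p = 0.00497). The WT call at 6 h was lost without WT 6 h replicate 3 (0.61, adjusted p = 0.056). At 24 h in D- its value was 0.50 and did not pass. The exporters Abca1 and Abcg1 lay under log2 5 on all 26 arrays, with group means from 2.75 to 3.11 for Abca1 and from 3.10 to 3.22 for Abcg1, and no fold is given for either.

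The members called higher at 2 h in 1 or both lines, the early risers here, were Pmvk, Cyp51, Hsd17b7, Sc5d, Srebf2 and Stard4. Of all genes tested, 11.2% were higher at 2 h in WT and 9.05% in D-. A share of all genes for 1 or both lines is not given here, so no result is read from the length of this list. Promoter sequence was at hand from RefSeq (GRCm38.p6), from 250 bases before to 50 bases after the annotated start, for 22 of the 28 members. Fdps, Fdft1, Sqle, Stard4, Npc1 and Abcg1 had no entry. Both strands were searched for TGACG, the core that cyclic AMP response elements share, for the full palindrome TGACGTCA, for TCACNCCAC, a form of the sterol regulatory element, and for CCAAT, a box often found beside it. TGACG stood in 4 of the 5 early risers with an entry and in 4 of the other 14 tested members with one, where 20.8% of all 32851 promoters held it. A member counted if any of its entries held the string, while the shares of all promoters are per entry. Insig2 counted for TGACG through an entry inside the gene (chr1:121327629-121327928). TGACGTCA was in no member promoter (1.79% of all). TCACNCCAC was in 1, that of Hmgcs1 (1.24% of all), and CCAAT in 19 of 22 (37.4% of all). Only exact matches were counted, so sterol elements of other spelling were not looked for. The Srebf2 stretch below holds tcaccccat, which differs from TCACNCCAC in the last base. The upstream stretches around TGACG in the early risers are shown on the strand of the gene. That core is in capitals (CGTCA where it lies on the other strand). The Hmgcs1 stretch is added because TGACG and the exact match to TCACNCCAC lie side by side in it.
Cyp51: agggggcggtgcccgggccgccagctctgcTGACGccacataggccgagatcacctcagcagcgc
Hsd17b7: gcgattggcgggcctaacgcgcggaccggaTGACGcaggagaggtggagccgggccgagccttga
Sc5d: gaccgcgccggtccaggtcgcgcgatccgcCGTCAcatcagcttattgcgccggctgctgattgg
Srebf2: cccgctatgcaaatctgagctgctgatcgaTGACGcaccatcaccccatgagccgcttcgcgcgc
Hmgcs1: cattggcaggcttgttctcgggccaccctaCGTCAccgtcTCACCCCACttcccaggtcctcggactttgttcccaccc
The stretches run from chr5:4104771-4104835 (minus strand) for Cyp51, chr1:169969217-169969281 (minus strand) for Hsd17b7, chr9:42264320-42264384 (minus strand) for Sc5d, chr15:82147067-82147131 (plus strand) for Srebf2 and chr13:119690174-119690252 (plus strand) for Hmgcs1. The core began 108 bases before the start of Cyp51, 46 before that of Hsd17b7, 54 before that of Sc5d and 172 before that of Srebf2. In Hmgcs1 it began 147 bases before the start and the sterol element 137 bases before it. These starts are those of the promoter entries. The gene record of Hsd17b7 reaches chr1:169969242, inside the printed stretch, so part of that stretch lies within the annotated gene. A match describes the letters of these windows and is no evidence that a factor bound there.

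The 2 lines were set side by side over the 24 members. The log2 changes had the same sign in 22 members at 2 h, 23 at 6 h and 18 at 24 h (91.7%, 95.8% and 75%), where 79.5%, 82.9% and 79.2% of all genes had. Of the 6 members called in each line at 2 h, 4 were called in both (66.7% of each list), and of the 10 called in each line at 6 h, 8 were (80% of each). At 24 h 4 were called in both, 80% of the 5 in WT and 57.1% of the 7 in D-. Of all genes called in WT, 64.5%, 67.8% and 54.5% were called in D- too at 2, 6 and 24 h, and of those called in D-, 72.4%, 81.4% and 84.5% in WT. In the test of the difference in response, limma called 0 members higher and 0 lower at 2 h (0.0538% and 0.188% of all genes) and 0 and 0 at 6 h (0.148% and 0.444%), with 0 of 24 at an unadjusted p under 0.05 at either time (5.96% and 6.35% of all genes). At 24 h it called 0 higher and 1 lower, Insig2, with 4 members at an unadjusted p under 0.05 (16.7%, against 25.4% of all genes), where 7.32% of all genes were higher and 5% lower. The other 3 were Tm7sf2 (0.72, 95% interval 0.13 to 1.32, adjusted p = 0.112), Srebf1 (0.43, 0.08 to 0.78, adjusted p = 0.105) and Scap (-0.37, -0.65 to -0.09, adjusted p = 0.0815). The intervals for most enzymes were wide: for Cyp51 at 24 h the difference was -0.37 with an interval from -1.40 to 0.66, and for Pmvk at 2 h 0.19 from -0.40 to 0.78. With the cluster as a block, Sc5d at 0.50 (adjusted p = 0.0429) and Tm7sf2 at 0.72 (adjusted p = 0.0435) also passed at 24 h, so that 2 members were higher and 1 lower.

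Between 6 and 24 h of treatment, 5 members rose and 3 fell in WT (15.5% and 16.9% of all genes), and 3 rose and 2 fell in D- (8.1% and 8.03%). Those that rose in both lines were Mvd, Tm7sf2 and Npc2, and those that fell in both were Pmvk and Ebp. In WT, Insig2 and Scap also rose (0.72 and 0.29) and Stard4 also fell. The Scap call held in 10 of 18 alternatives and was lost without WT 6 h replicate 2 or 3 or WT 24 h replicate 1 or 3 (0.19 to 0.30, adjusted p = 0.071 to 0.222) and within cluster 2 at 0.31 (adjusted p = 0.0967).

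Other genes of sterol and lipoprotein handling included larger changes than most of the 24. Of 30 such genes, 21 had a probe set and 13 were tested. In WT 4 were higher and 2 lower at 24 h (26.4% and 27.5% of all genes), and in D- 3 were higher and 1 lower (17.1% and 17.6%). Lipa, the lysosomal lipase that frees cholesterol from its esters upstream of Npc2, rose by 1.01, 1.91 and 2.52 in WT at 2, 6 and 24 h, and by 0.74 and 0.62 in D- at 6 and 24 h. The D- call at 24 h was lost without D- 24 h replicate 2 or 3 (0.53 and 0.47, adjusted p = 0.0836 and 0.109). The D- response of Lipa at 24 h minus that of WT was -1.90 (limma adjusted p = 8.04e-05), the same direction as for Insig2. Scarb1, a lipoprotein receptor, was lower, with log2 changes of -1.84 and -2.05 in WT and -1.28 and -1.20 in D- at 6 and 24 h, the last lost without D- 24 h replicate 2 (-0.90, adjusted p = 0.105). Abca7, a lipid transporter related to Abca1, rose by 1.65 in WT and 0.72 in D- at 24 h, after a D- value of -0.70 at 2 h. The D- call at 24 h was lost without D- 24 h replicate 2 or 3 (0.60 and 0.54, adjusted p = 0.0865 and 0.107), and that at 2 h without D- untreated replicate 1 or 2 or D- 2 h replicate 3 (-0.40 to -0.68, adjusted p = 0.0511 to 0.234). Stard3, a late endosomal sterol carrier, rose by 0.51 and 0.52 at 24 h. At 6 h Ubxn4 rose by 0.79 and 0.72, and Mbtps1, a protease that cleaves SREBPs, fell by 0.86 in D-.

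Of 17 fatty acid genes under SREBP control, 16 had a probe set and 12 were tested. At 24 h, 4 were higher and 2 lower in WT (26.4% and 27.5% of all genes) and 3 higher and 1 lower in D- (17.1% and 17.6%). Elovl5, a fatty acid elongase, rose by 1.08 and 1.33, and Gpam, which starts glycerolipid synthesis, by 1.34 and 0.81, the latter held in 8 of 19 alternatives and lost without D- untreated replicate 1, 3 or 4 or D- 24 h replicate 1 or 3 (0.57 to 0.82, adjusted p = 0.078 to 0.203). At 2 h in D- Gpam had fallen by 1.54, a call held in 18 of 19 alternatives. With the mean of its probe sets Gpam gave smaller values. They were 0.73 in WT and 0.35 in D- at 24 h (limma adjusted p = 0.00774 and 0.241), and -0.93 in D- at 2 h (adjusted p = 0.00361). Fasn, the fatty acid synthase, fell, with log2 changes of -0.97 and -0.50. The desaturase Fads2 fell by 1.12 in WT, and the D- response minus that of WT was 1.24. Fads1, another desaturase, gave -0.66 in WT and -0.34 in D- at 2 h and rose by 0.39 in D- at 24 h, with a difference in response of 0.47 that held in 14 of 26 alternatives. That difference was lost without WT untreated replicate 3 or 4 or WT 24 h replicate 2 or 3 or D- untreated replicate 1, 2 or 3 or D- 24 h replicate 1 or 3 (0.41 to 0.46, adjusted p = 0.0543 to 0.0931). At 6 h Acss2, which makes acetyl-CoA from acetate, fell by 0.85 in WT, and at 24 h it stood 0.86 above untreated cells. From 6 to 24 h Acss2 rose by 1.71 in WT and 0.72 in D-, the latter lost without D- 6 h replicate 1 or D- 24 h replicate 2 or 3 (0.60 to 0.68, adjusted p = 0.0612 to 0.0875). At 6 h Lpin1, a phosphatidate phosphatase, rose by 0.64 and 0.61, calls lost without WT untreated replicate 2 or WT 6 h replicate 3 (0.48 and 0.57, adjusted p = 0.0737 and 0.0766) and without D- untreated replicate 2 or 4 or D- 6 h replicate 2 or 3 (0.52 to 0.59, adjusted p = 0.064 to 0.124).

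Of 14 genes that use isoprenoids from the mevalonate pathway, 10 had a probe set and all 10 were tested. At 6 h, 4 were higher and 1 lower in WT (19.1% and 19.1% of all genes) and 3 higher and 1 lower in D- (16.2% and 15.6%). Dhdds, for dolichol synthesis, rose by 0.51 and 0.46. With the mean of its probe sets the values were 0.24 and 0.25 and neither passed (limma adjusted p = 0.0622 and 0.0574). Fnta, the shared subunit of the protein prenyltransferases, rose by 0.39 and 0.45. From 6 to 24 h Dhdds and Fnta fell again, with log2 changes of -0.70 and -0.43 in WT. Icmt, which methylates prenylated proteins, rose by 0.37 and 0.37. Rabggtb, a subunit of the enzyme that prenylates Rab proteins, was the 1 that fell, with log2 changes of -0.67 and -0.52 at 6 h and -1.01 and -0.66 at 24 h.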

How the data were processed

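Per the submitters' processing notes, the deposited intensity values were made with GCRMA, with no version in the sources used here, and they are on a linear scale. Log2 of the deposited intensity was taken from the authors' table of 22690 probe sets on 26 arrays. The 64 control probe sets were left out, and probe sets with log2 of at least 5 (intensity 32) on at least 3 arrays were kept. Of the other 22626 probe sets, 20380 carried 1 gene symbol, 691 several and 1555 none in the platform annotation, and the brightest kept probe set with a single symbol stood for a gene. limma 3.58.1 in R 4.3.3 fitted 8 group means over all arrays (18 residual degrees of freedom) with empirical Bayes moderation and Benjamini-Hochberg adjustment within each comparison. The number of arrays limits the precision. Drawings used Python 3.11.15 and matplotlib 3.10.9, and the fit was tested on simulated data. The simulated noise was drawn independently for each probe set and array, so spread shared across genes, as between the array clusters, was not part of that test.

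The members and gene lists were chosen with earlier results of these data known. Every member is named, with all arrays for those called with an absolute log2 change of at least 1, and up to 4 called genes of each companion list with the largest change per line at 6 or 24 h. The 38 alternatives changed moderation, array weights, scaling, filter, probe-set summary, blocks or 1 array at a time. Replicate numbers were not taken as pairs in the main fit. Of 85 pairs of arrays with the same number, 68 correlated over 0.1 in their deviations (from -0.468 to 0.655). These values are no ground against pairing, and counts with the replicate number as a block are given below.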

Additional observations from a re-analysis of the deposited data

Results flagged for a closer look

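Among 82 groups of 4 untreated arrays (41 genes in each line), 3 had a single array apart from the others by a gap close to the whole range of the group. Chance gives about 1 in 20, or 4.1 of 82, so the number found is no more than chance gives. For Fdps, D- untreated replicate 2 read 11.98, with the other 3 arrays from 12.53 to 12.60. For Insig2, D- untreated replicate 4 read 8.69, with the others within 0.01 of each other, from 8.439 to 8.444. For Dhdds, D- untreated replicate 3 read 8.43.

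For 4 of the 41 genes looked at, the response to 24 h of 8-CPT-cAMP differed between the lines in the limma test of the difference itself. Of all genes tested, 7.32% were higher and 5% lower in that test. The D- change minus the WT change was -0.80 for Insig2 (adjusted p = 0.0138), -1.90 for Lipa (adjusted p = 8.04e-05), 1.24 for Fads2 (adjusted p = 0.00235) and 0.47 for Fads1 (adjusted p = 0.0359). Within cluster 2 the Insig2 difference was -0.48 and did not pass (limma adjusted p = 0.0973). The Fads1 call held in 14 of 26 alternatives.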

How the results depend on the processing

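No called value of a member changed direction in any of the 38 alternatives. Of the companion genes, within cluster 1 alone Abca7 in D- at 24 h became -0.032 and Fasn in WT from 6 to 24 h 0.047. Over both, 594 of 7519 uncalled values changed sign. Counts of members called moved by over 1.5 times in these cases. The shares of all genes called higher and lower in the same fit, which moved too, stand in brackets. For WT at 2 h, 6 of 24 members were called (11.2% and 13.9%). Array weights gave 10 (15.1% and 17.9%), the array cluster as a block 12 (14.4% and 18.8%) and cluster 2 alone 11 (12.7% and 14.6%). For WT at 24 h, 5 were called (26.4% and 27.5%). Array weights gave 8 (34.2% and 32.4%) and the cluster block 10 (29.6% and 30.5%). For the difference in response at 24 h, 1 was called (7.32% and 5%). Array weights gave 5 (12.9% and 11.7%) and the cluster block 3 (11.7% and 9.63%). Leaving out 1 array gave 1 to 2, with 2 without WT 24 h replicate 2 (4.9% and 3.16%). For D- 24 h against 6 h, 5 were called (8.1% and 8.03%). The cluster block gave 9 (12.4% and 13.5%). Leaving out 1 array gave 3 to 5, with 3 without D- 6 h replicate 1 (6.67% and 6.58%). For the untreated lines, 1 was called (1.91% and 3.09%). Leaving out 1 array gave 0 to 1, with 0 without WT untreated replicate 4 (1.21% and 2.1%). Cluster 1 alone had 1 array in each treated group, assumed to vary like the untreated ones, so its counts are not given here. With the replicate number as a block the counts were 11 for WT at 2 h (13.9% and 17.1%) and 8 for WT at 24 h (28.9% and 28.9%). For the difference in response at 24 h that block gave 2 (9.87% and 7.75%). It gave 14 for WT at 6 h (22.6% and 21.1%), and 9, 15 and 8 for D- at 2, 6 and 24 h (10.9% and 16%, 19.5% and 18.4%, 19.5% and 20%). These moved by no more than 1.5 times. With that block the median log2 change of the members was 0.117, 0.368 and 0.102 at 2, 6 and 24 h in WT. In D- it was 0.176, 0.453 and 0.426. Of the 26 arrays, 14 correlated best with an array of their own number, so the numbers are only a hint of pairing. The cause of these moves was not tested. All but 1 tested member lay above log2 5 on all arrays, and Hsd17b7 on 24.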
